A study of Homo sapiens with 5 samples.

Results

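SK-MEL28 is an established human cell line grown from a malignant melanoma, and this account is about its transcript levels without treatment. The members are the 5 RNA samples of untreated cells among the 10 RNA samples of the study, 1 on each of 5 two-colour spotted oligonucleotide arrays. On every array untreated RNA carried the dye Cy3. The other channel, in Cy5, held RNA of SK-MEL28 cells given cisplatin together with electroporation (2 arrays) or cisplatin alone (3 arrays). The arrays are called electroporation arrays 1 and 2 and cisplatin arrays 1, 2 and 3 after that other RNA, although the untreated RNA described here had neither treatment. The labels do not say whether the 5 untreated samples came from separate cultures, so the spread between arrays may be technical.

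For each of 3048 probes the local background was subtracted from the Cy3 intensity of the first listed spots (3 of 4, 5 of 8 or 8 of 12), and the median over these spots was taken as the net intensity, in scanner units. A gene name was listed for 2192 probes, which gave 2078 genes, and 90 genes with several probes were represented by the brightest. Percentile ranks run over all 3048 probes of an array, with 100 for the brightest, and are given as the mean over the 5 arrays with the SD. A probe was called above background on an array when a share of 0.5 or more of these spots read over their local background plus 2 SD of it. Probes differ in how well they bind, so a rank says how bright a probe was. It does not say that one gene had more RNA than another, and a gene not above background may still be transcribed.

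Melanoma arises from melanocytes, the pigment cells of the skin. Their master transcription factor MITF binds short E-box elements in the promoters of pigment genes. Among its targets are TYR, the tyrosinase that starts melanin synthesis, and TYRP1, a related melanosomal enzyme. MLANA is a melanosomal protein used to diagnose melanoma, and S100B is a calcium-binding protein found in melanocytes and other neural crest cells.

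The promoters of TYR and TYRP1 are shown because both genes were bright in untreated cells and both hold the E-box letters that MITF is known to bind. The 150 bases before each gene's start are RefSeq's, on build GRCh38.p14 and the plus strand, at chr11:89177725-89177874 for TYR and chr9:12693235-12693384 for TYRP1. Capitals mark CATGTG or, read from the other strand, CACATG.
TYR: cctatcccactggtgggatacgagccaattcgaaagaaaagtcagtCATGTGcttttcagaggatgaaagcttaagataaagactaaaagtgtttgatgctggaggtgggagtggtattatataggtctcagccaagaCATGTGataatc
TYRP1: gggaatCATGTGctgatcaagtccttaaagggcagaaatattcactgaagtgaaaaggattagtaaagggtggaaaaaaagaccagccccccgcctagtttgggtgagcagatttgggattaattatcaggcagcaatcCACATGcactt
In TYR the matches begin 104 and 12 bases before the start, and in TYRP1 144 and 11 bases before it. In the 250 bases before the start, 9.54% of the 27303 promoters in the table held CATGTG on either strand, as did 7.03% of 1665 promoters of genes on the array. By detection, the share was 6.68% for genes above background on every array, 7.65% on some and 7.21% on none. These letters were not found in that window for MLANA and MITF. A match is a description of the letters and was not measured as binding.

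Cisplatin arrays 1 and 2 stood apart from the other 3. Median local background lay between 11 and 14, median net intensity between 21 and 30, and the number of probes above background between 1465 and 1710 per array. Electroporation arrays 1 and 2 had 1643 and 1710 such probes, against 1465, 1490 and 1581 on cisplatin arrays 1, 2 and 3. A net intensity of 0 or less was read for 14 and 12 probes on the electroporation arrays, against 62, 79 and 27 on the cisplatin arrays. The upper quartile of net intensity was 121 and 144 on the electroporation arrays, against 136, 123 and 89 on the cisplatin arrays. Net intensities and their sums were not scaled between arrays, so they also follow how bright an array was as a whole. Among probes above background on an array, spots of 1 probe varied by a median of 13.4% to 15.1% (coefficient of variation). Over all probes and arrays, 1 spot was saturated. The number of arrays limits the precision. Across the 3048 probes, net intensity correlated between cisplatin arrays 1 and 2 with a Spearman coefficient of 0.949. Among electroporation arrays 1 and 2 and cisplatin array 3 it lay between 0.950 and 0.960, and between these sets of arrays it lay between 0.908 and 0.922. Probes share the array and are not independent replicates. This division crosses the labels, since cisplatin array 3 lay with the electroporation arrays. The main counts, and the ranks of some genes that shifted with cisplatin arrays 1 and 2, are therefore given with and without them.

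Of the 2078 named genes, 1065 (51.3%) stood above background on every array, 445 (21.4%) on some, and 568 (27.3%) on no array. Genes above background on every array had a median net intensity of 179 and a median rank of 78.5. Those above it on some arrays had 23.2 and a rank of 47.8, and those above it on none had 9.2 and a rank of 25.8. The rank had a median SD over arrays of 1.15 percentile points for genes above background on every array, 7.13 for those above it on some and 7.95 for those above it on none. Ranks are compressed among bright probes, so these SDs do not compare how steady the intensities were. Without cisplatin arrays 1 and 2, 1199 genes stood above background on each of the other 3 arrays and 594 on none of them. Among the gene lists below, the count for cell cycle genes was then 31 in place of 26, for adhesion molecules 10 in place of 7, and for interleukins and chemokines 12 in place of 9. For caspases and adaptors it was 7 in place of 5, and for TNF receptors 11 in place of 9. All list counts use the brightest probe of each gene. Those over 5 arrays are to be read against the 51.3% and 27.3% of all named genes. Those without cisplatin arrays 1 and 2 are to be read against 1199 of the 2078. Of the 856 probes with no gene name 187 (21.8%) were above background on every array, against 1294 of all 3048 probes (42.5%).

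All 5 melanocyte markers stood above background on every array. TYRP1 had net intensities of 1539 and 1824 on the electroporation arrays, against 2363, 2015 and 1123 on the cisplatin arrays, and ranked at 93.0 ± 0.56 (SD, n = 5). S100B ranked at 82.8 ± 0.86, with 334 and 308 on the electroporation arrays, against 323, 275 and 237 on the cisplatin arrays. TYR had 231 and 273 on the electroporation arrays, against 255, 220 and 161 on the cisplatin arrays, a rank of 80.7 ± 0.38. For all 5 markers cisplatin array 3 gave the lowest value. MLANA was dimmer, at 135 and 198 against 177, 157 and 132, and ranked at 77.7 ± 1.2. MITF varied most among the 5, with 234 and 363 on the electroporation arrays, against 1035, 983 and 171 on the cisplatin arrays, and a rank of 85.1 ± 4.7. Its high values were those of cisplatin arrays 1 and 2, and without them it ranked at 81.8 ± 1.4 (SD, n = 3).

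**Figure D1:**
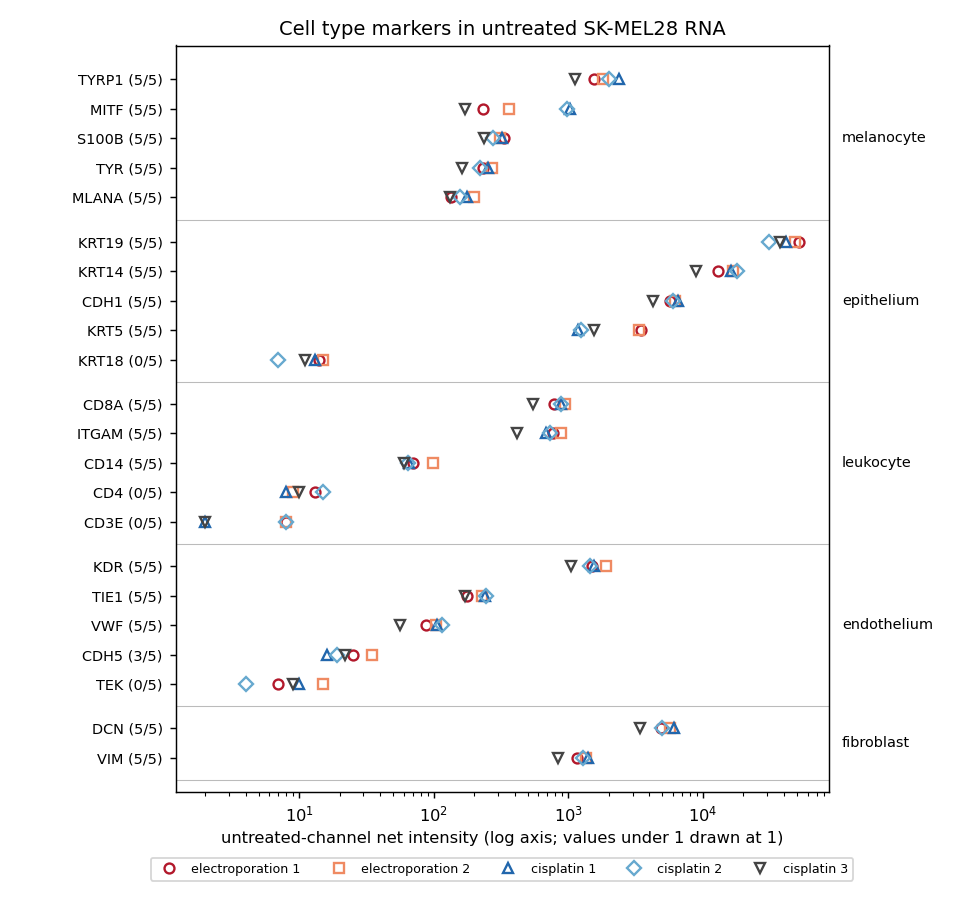
Net intensity of untreated RNA on a log axis for markers of melanocytes and of 4 other cell types, 1 symbol per array. The numbers after each gene give the arrays on which it stood above background. All 5 melanocyte markers stood above it on all 5 arrays, as did KRT19, KRT14, CDH1 and KRT5 among the epithelium markers.

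Of 14 measured genes on the pigment lineage list, 9 stood above background on every array and 3 on none. The 9 include the 5 markers, and also MAGEA1, which is not a pigment gene. SOX10, the neural crest transcription factor that activates MITF, had 265 and 317 on the electroporation arrays, against 353, 265 and 203 on the cisplatin arrays. MAGEA1, a tumour antigen first found in melanoma, ranked at 80.9 ± 0.49, close to SOX10 at 82.4 ± 0.48. EDNRB, the endothelin receptor of the melanocyte lineage, ranked at 75.8 ± 1.5, and BCL2A1, a survival gene that MITF can activate, at 62.2 ± 1.8. RAB27A, which moves melanosomes to the cell edge, was above background on 4 of 5 arrays, and the melanosomal receptor GPR143 on 1. KIT, the stem cell factor receptor on which melanocyte precursors depend, read 9 and 7 on the electroporation arrays, against 14, 7 and 3 on the cisplatin arrays. Its ligand KITLG and the melanoma adhesion molecule MCAM were likewise not above background on any array.

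Markers of other cell types were also bright. Of 5 measured epithelium markers, 4 stood above background on every array. Their summed net intensity, with KRT18 included, lay between 74055 and 74291 on the electroporation arrays and between 52115 and 65309 on the cisplatin arrays. KRT19, a keratin of simple epithelia, was the fourth brightest named gene, with 51874 and 48017 against 41242, 31201 and 37502. KRT14, a keratin of basal epidermis, ranked at 98.6 ± 0.19, and its second probe was bright as well, at 97.7. KRT5, the partner of KRT14 in basal cells, had 3464 and 3364 on the electroporation arrays, against 1187, 1238 and 1541 on the cisplatin arrays. KRT18, another keratin of simple epithelia, was not above background on any array and ranked at 33.8. CDH1, which encodes E-cadherin, ranked at 96.8 on its brighter probe and at 10.7 on the other, which was not above background on any array.

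Leukocyte markers went both ways, with 3 of 5 above background on every array. CD8A, a coreceptor of cytotoxic T cells, ranked at 89.3 ± 0.31 and ITGAM, a myeloid integrin chain, at 88.4 ± 0.76. CD14, a monocyte receptor, ranked at 67.7 ± 2.0. CD4 and CD3E, both T cell genes, were above background on no array, with CD3E at 8 and 8 on the electroporation arrays, against 2, 8 and 2 on the cisplatin arrays. Summed over the list, net intensity lay between 1644 and 1942 on the electroporation arrays and between 1041 and 1697 on the cisplatin arrays. Among endothelium markers, the VEGF receptor KDR ranked at 92.3 on its brighter probe and 60.7 on the other, TIE1 at 80.2 and VWF at 71.2, CDH5 was above background on 3 arrays, and the angiopoietin receptor TEK on none. The sum for endothelium markers lay between 1790 and 2302 on the electroporation arrays and between 1309 and 1927 on the cisplatin arrays. DCN and VIM were the measured fibroblast markers. VIM, an intermediate filament protein that melanoma cells also make, ranked at 91.3 ± 0.29. DCN, a matrix proteoglycan, ranked at 96.5 on its brightest probe and at 93.5 and 53.1 on the others. The sum of the pair lay between 6059 and 7043 on the electroporation arrays and between 4279 and 7543 on the cisplatin arrays. No listed cell type had all its measured markers below background. All RNA came from the SK-MEL28 line, so these markers are not read here as the presence of other cell types. Whether a probe also binds transcripts of other genes was not tested.

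The brightest named gene was RBL2, a retinoblastoma-related protein that holds cells out of the cycle. It had 49626 and 44100 on the electroporation arrays, against 53166, 34663 and 46742 on the cisplatin arrays. PCDH1, a protocadherin, and TTYH1, a tweety family membrane protein, came next with mean net intensities of 44680 and 42938. After KRT19 followed NR2F6, an orphan nuclear receptor, at 40772 ± 3950 (SD, n = 5), and NPC1, which exports cholesterol from lysosomes, at 39449 ± 2484. IGLL1, a part of the pre-B cell receptor, averaged 39036 ± 5800, and the neuropeptide gene CORT 34997 ± 8391. Places 9 to 15 went to the histone chaperone DAXX, the ubiquitin-conjugating enzyme CDC34, the ligand WNT2, tetranectin (CLEC3B), the RAB5 regulator USP6NL, the retinoid receptor RXRG and the centromere protein ITGB3BP. Their ranks lay between 99.41 and 99.53. The other probe of DAXX was dimmer and ranked at 73.4. CLEC3B had the widest spread of the 15, with 35630 and 30008 on the electroporation arrays, against 50892, 20150 and 30030 on the cisplatin arrays. Neighbours at the top of this order lay within their spread, as RBL2 at 45659 ± 7011 and PCDH1 at 44680 ± 8337 show. Of the 10 brightest probes, 4 had no gene name, and of the 20 brightest, 6.

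Genes used as references in many experiments were above background but not the brightest. ACTB, cytoskeletal actin, had 1376 and 1198 on the electroporation arrays, against 966, 964 and 717 on the cisplatin arrays, and ranked at 90.6 ± 0.88. GAPDH, a glycolytic enzyme, ranked at 88.3 ± 0.41, PPIA at 90.9 ± 0.53 and B2M, the light chain of MHC class I, at 89.8 ± 0.55. Of 9 housekeeping genes 8 were above background on every array. The exception was TBP, a basal transcription factor, above background on 2. All 10 genes of ribosome and translation stood above background on every array, from the elongation factor EEF1A1 at 91.7 to the initiation factor EIF3E at 65.2. The second probes of EEF1A1 and of the ribosomal protein gene RPL7 ranked at 87.4 and 84.3, near the first at 91.7 and 87.9. The 3 probes of the initiation factor EIF4G1 ranked at 88.2, 38.0 and 12.3, and the last was above background on no array. Of 4 genes of glycolysis and metabolism 3 stood above background on every array, with lactate dehydrogenase subunits LDHB at 94.6 and LDHA at 90.5. FASN, the fatty acid synthase, was not above background on any array. Of 9 cytoskeleton genes 7 stood above background on every array, led by the focal adhesion protein ZYX at 96.4.

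**Figure D2:**
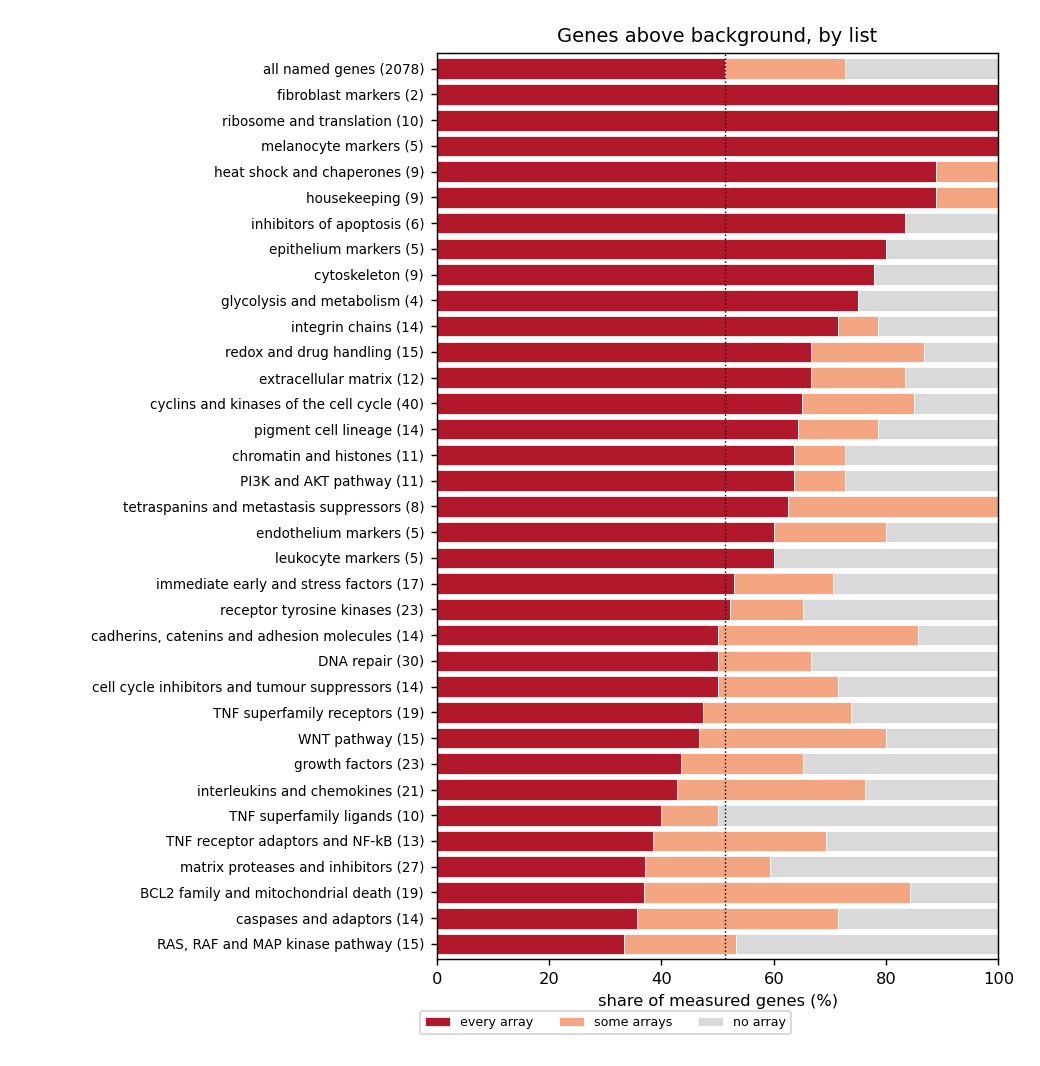
Share of the measured genes of each list above background on every array (red), some arrays (orange) or no array (grey), with the number of measured genes after each name. The dotted line marks the share of all 2078 named genes above background on every array, 51.3%.

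Of 40 measured cyclins, cycle kinases and replication genes, 26 (65%) stood above background on every array, against 51.3% of all named genes, and 6 on none. TFDP1, the DNA-binding partner of E2F factors, ranked at 97.4 ± 0.089. The mitotic kinases AURKB and PLK1 ranked at 92.6 ± 0.50 and 90.3 ± 0.98. TOP2A, the topoisomerase of dividing cells, had 216 and 231 on the electroporation arrays, against 209, 222 and 154 on the cisplatin arrays. CCND1, cyclin D1, ranked at 76.9 ± 0.70 and the proliferation marker MKI67 at 71.3 ± 1.8. PCNA, the replication clamp, was dimmer, at 20 and 30 against 42, 12 and 25, and was above background on 4 arrays. CCNE1, cyclin E1, and CDK6, a kinase that partners with D cyclins, were above background on no array, with CCNE1 at 7 and 4 against 3, 4 and 1.

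Of 14 cell cycle inhibitors and tumour suppressors, 7 were above background on every array and 4 on none. TP73, a relative of p53, ranked at 98.1 ± 0.092, NF1, which switches RAS off, at 90.0 ± 0.41 and RB1 at 85.2 ± 0.69 on its brighter probe and 55.4 on the other. CDKN1B, which encodes p27, ranked at 58.7 ± 1.2. CDKN2A, a tumour suppressor locus of familial melanoma, read 4 and 4 on the electroporation arrays, against 4, 5 and 1 on the cisplatin arrays. CDKN1A, the p53 target p21, read 8 and 5 against 2, 2 and 3. Neither was above background on any array.

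Inhibitors of apoptosis were above background on every array in 5 of 6 cases, with TNFAIP3, the NF-kB brake A20, at 94.6 ± 0.27, NAIP at 90.7 ± 0.73 and BIRC5, survivin, at 79.2 ± 0.92. The exception was BIRC6, above background on no array. Caspases and their adaptors were above background on every array in 5 of 14 cases and on none in 4. CASP9, the initiator caspase of the mitochondrial pathway, ranked at 88.5 on its brighter probe and at 39.6 on the other. Of 19 genes of the BCL2 family and mitochondrial death, 7 were above background on every array and 3 on none. Without cisplatin arrays 1 and 2, 12 of the 19 were above background on each of the other arrays. The count for all 2078 named genes was then 1199. BCL2L11, the death promoter BIM, ranked at 77.4 and its other probe at 34.9. BCL2 itself read 14 and 9 on the electroporation arrays, against 0, 3 and 7 on the cisplatin arrays. MCL1, another survival gene of the family, read 8 and 5 against 2, 3 and 5, and neither was above background on any array. The death effector BAX was above background on 1 array, as was BCL2L1, which encodes BCL-XL.

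TNF superfamily members ranged widely. The ligands TNFSF4 (OX40 ligand) and TNFSF9 (4-1BB ligand) ranked at 91.9 ± 1.2 and 91.8 ± 0.15. TNF read 8 and 9 on the electroporation arrays, against 6, 3 and 7 on the cisplatin arrays, and was one of 5 ligands among 10 that were above background on no array. Of 19 receptors 9 were above background on every array. CD40, a costimulatory receptor, ranked at 94.5 ± 0.66, or at 80.5 when all listed spots were used, and NGFR, a neurotrophin receptor of neural crest cells, at 89.7 ± 0.85. The death receptor TNFRSF10B, which binds TRAIL, was above background on 4 arrays and TNFRSF10A, which binds it as well, on none. Downstream, 5 of 13 adaptors and NF-kB genes were above background on every array, with NFKB1 at 86.7 ± 0.96. RELA, the p65 subunit, read 54 and 65 on the electroporation arrays, against 0, 1 and 33 on the cisplatin arrays, so that it was above background on the other 3 arrays and not on cisplatin arrays 1 and 2.

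DNA repair genes were above background on every array in 15 of 30 cases (50%), close to the 51.3% of all named genes, and on none in 10. RAD23B, which helps XPC find damage, ranked at 99.1 ± 0.12. ERCC4, a nuclease subunit of nucleotide excision repair, ranked at 94.0 ± 0.33, while its partner ERCC1 read 16 and 13 on the electroporation arrays, against 17, 15 and 17 on the cisplatin arrays, and was not above background. LIG4, the ligase of end joining, ranked at 78.1 ± 0.91. The damage kinase ATR read 5 and 8 against 1, 0 and 1, and the excision repair protein XPA read 8 and 9 against 5, 2 and 6.

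Integrin chains were above background on every array in 10 of 14 cases. ITGAX, a myeloid chain, had 5115 and 3190 on the electroporation arrays, against 2939, 1494 and 1692 on the cisplatin arrays. ITGB1, the common beta chain, ranked at 84.3 ± 0.97 and ITGAV at 63.2 ± 3.4. ITGB3, the partner of ITGAV known from invasive melanoma, read 14 and 17 against 15, 1 and 18 and was above background on no array, as was ITGA4. Of 14 cadherins, catenins and adhesion molecules 7 were above background on every array. CEACAM1 ranked at 97.6 and 72.5 on its probes, L1CAM at 81.2 ± 0.87 and CDH2, the N-cadherin of melanoma and neural cells, at 73.8 ± 2.3. NCAM1 was above background on no array.

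Extracellular matrix genes were above background on every array in 8 of 12 cases, with the collagen COL3A1 at 91.4 ± 0.26 and SPARC, a matrix protein secreted by melanoma cells, at 83.6 ± 0.49. For matrix proteases and their inhibitors the count was 10 of 27. CTSD, a lysosomal protease, ranked at 92.7 ± 0.57, the inhibitor TIMP2 at 84.6 ± 0.44 and the gelatinase MMP2 at 82.1 ± 0.61. MMP9, the other gelatinase, read 3 and 9 on the electroporation arrays, against 1, 1 and 7 on the cisplatin arrays. MMP14, which activates MMP2 at the cell surface, read 12 and 12 against 16, 14 and 8, and both were above background on no array. Of 8 tetraspanins and metastasis suppressors 5 were above background on every array. CD63, a tetraspanin of melanosomes and lysosomes, had 3969 and 4195 against 4859, 4671 and 3022. CD82 ranked at 79.2 ± 1.1 and GPNMB, a melanosomal glycoprotein, at 69.2 ± 2.5.

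Among receptor tyrosine kinases, 12 of 23 were above background on every array and 8 on none. ERBB3, the neuregulin receptor of neural crest cells, ranked at 97.3 ± 0.13. IGF1R ranked at 92.2 on its brighter probe and 80.7 on the other. PDGFRA and ALK were near 0, with PDGFRA at 2 and 4 on the electroporation arrays, against 4, -1 and 8 on the cisplatin arrays. Genes of the RAS and MAP kinase pathway were above background on every array in 5 of 15 cases, 33.3% against 51.3% of all named genes. MAP2K1, which encodes MEK1, ranked at 80.9 ± 1.1 and DUSP6, a phosphatase of ERK, at 58.6 ± 2.1. HRAS ranked at 63.4 and its other probe at 41.0. The adaptor GRB2 read 6 and 9 on the electroporation arrays, against 6, 3 and 5 on the cisplatin arrays, and was above background on none. Of 11 genes of the PI3K and AKT pathway 7 were above background on every array, with PIK3CD at 98.2 ± 0.18 and AKT1 at 95.7 ± 0.22, while MTOR was above background on no array.

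Among growth factors the brightest probe was that of MDK, midkine. It had 26007 and 22535 on the electroporation arrays, against 28171, 24314 and 21859 on the cisplatin arrays. IGF1 ranked at 97.5 ± 0.23, and FGF2, a growth factor for melanocytes, was above background on no array at 20 and 20 against 7, 3 and 8. In all, 10 of 23 growth factors and 9 of 21 interleukins and chemokines were above background on every array. The chemokine CCL2 ranked at 93.0 ± 0.37 and the interferon IFNA1 at 11.2 ± 6.9. The count for WNT pathway genes was 7 of 15.

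Immediate early and stress factors were above background on every array in 9 of 17 cases. ATF4, the transcription factor of the integrated stress response, ranked at 94.3 ± 0.32 and FOSL1 at 93.5 ± 0.23. FOS read 4 and 11 on the electroporation arrays, against 0, 1 and 6 on the cisplatin arrays. FOS and JUN were above background on no array and MYC on 2. Heat shock genes and chaperones were so in 8 of 9 cases, led by HSP90AB1 at 95.5 ± 0.29. Genes of redox and drug handling were so in 10 of 15 cases, with the quinone reductase NQO1 and the glutathione transferase GSTP1 both at 84.8, and the drug efflux pump ABCB1 above background on no array. Of 11 chromatin genes 7 were above background on every array. HMGB2 ranked at 97.0 ± 0.54, HMGA1 at 99.1 on its brighter probe and 44.1 on the other, and the methyltransferase EZH2 was above background on no array.

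Some genes were bright on 3 arrays and far dimmer on cisplatin arrays 1 and 2. RAP1GAP, which switches RAP1 off, read 1507 and 2118 on the electroporation arrays, against 0, -1 and 889 on the cisplatin arrays. It ranked at 55.8 over all 5 arrays and at 92.5 without cisplatin arrays 1 and 2. INSM1, a neuroendocrine transcription factor, read 2680 and 4011 against 8, 51 and 1864. SIPA1, another RAP1 regulator, read 693 and 859 against 3, 13 and 497, and JUP, the junction protein plakoglobin, 369 and 598 against 0, 16 and 234. These genes were picked for being lower on cisplatin arrays 1 and 2 than on each of the other 3. That cisplatin array 3 lay with the electroporation arrays was therefore fixed by the choice. The opposite was seen for TTK, a kinase of the spindle checkpoint, at 34 and 23 against 905, 597 and 17. ST8SIA1, which makes the melanoma ganglioside GD3, read 56 and 69 against 423, 377 and 31.

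At any level, 58 probes lay at least 4-fold lower on cisplatin arrays 1 and 2 than on each of the other 3, and 6 lay at least 4-fold higher. Values under 1 were set to 1 for these folds. In Cy5, 47 of the 58 and 4 of the 6 were separated in the same direction. A narrower count, adopted after these were seen, asked for signal above background on every array of the brighter side. It kept 33 lower and 4 higher probes. Since that count takes probes through the arrays on which they are bright, their Cy5 values add no support. RAP1GAP in Cy5, for example, read 649 and 1414 on the electroporation arrays, against 2, -1 and 890 on the cisplatin arrays. MITF in Cy5 read 142 and 230 against 814, 917 and 249, and cisplatin arrays 1 and 2 were highest in both channels. By detection, 70 of the 137 probes above background on just 3 arrays were above it on electroporation arrays 1 and 2 and cisplatin array 3, while 7 probes were above it only on cisplatin arrays 1 and 2. What separates these arrays was not tested.

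**Figure D3:**
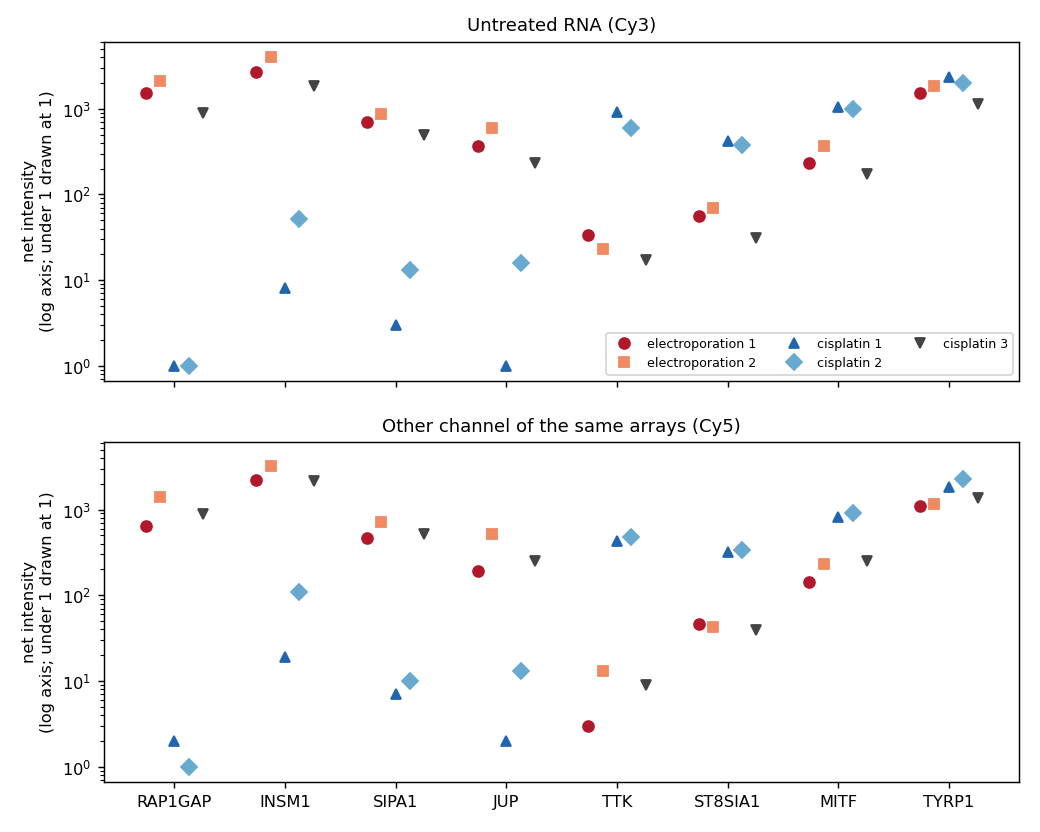
Net intensity on a log axis of 8 genes in untreated RNA (top) and in the other channel of the same arrays (bottom), 1 symbol per array. RAP1GAP, INSM1, SIPA1 and JUP were low and TTK, ST8SIA1 and MITF high on cisplatin arrays 1 and 2 in both channels, and TYRP1 is shown as a marker on which the arrays lay closer together.

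To see whether untreated RNA read alike in both sets of arrays, the untreated channels of the 2 electroporation arrays and the 3 cisplatin arrays were compared with limma. None of 3048 probes passed at an adjusted p under 0.05 (0%), and 195 had an unadjusted p under 0.05. The 3 smallest p-values belonged to KRT2, an epidermal keratin, DFFA, an inhibitor of the DNA-cutting nuclease of apoptosis, and KRT19. Their log2 differences, electroporation minus cisplatin arrays, were 0.60 (SE 0.071), 0.53 (SE 0.069) and 0.46 (SE 0.061), each with an adjusted p of 0.484 by limma. KRT5 had a larger difference of 2.03 (SE 0.446) with an adjusted p of 0.682 by limma, and every electroporation array lay above every cisplatin array. KRT5 was chosen after its values were seen. The levels compared here are means over a probe's spots. For KRT5 they were 8.76 and 10.3 in log2 on cisplatin arrays 1 and 2, where its median net intensities were 1187 and 1238. The difference of 2.03 is thus not that of the net intensities. Without cisplatin array 3 the same test called 101 probes, 55 higher and 46 lower on the electroporation arrays, with cisplatin arrays 1 and 2 alone as the cisplatin side. Without cisplatin arrays 1 and 2 it called 0 probes. There the cisplatin side was 1 array, assumed to vary like the others, with 1 residual degree of freedom, so that count says little.

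Where a gene had several probes, they often differed. The 74 genes with 2 probes differed by a median of 26.5 percentile points between them (quartiles 11.9 and 42.9). All pairs among the 2192 named probes differed by a median of 25.8 (quartiles 11.9 and 43.8). Thus 2 probes of 1 gene differed about as much as any 2 named probes. Both probes were above background on every array for 22 genes, neither was on any array for 8, and for another 22 one probe was above background on every array and the other on none. Across the 74 genes the ranks of the probes correlated with a Spearman coefficient of 0.161. The widest gap was that of CDH1, 96.8 against 10.7. DDR1, a collagen receptor, ranked at 81.7 and 13.1, and the retinoid receptor RXRA at 97.8 and 29.0. Close agreement was seen for LMNA, with 72.8, 67.2 and 65.8, and for CD44, with 72.2, 67.5 and 65.7. Most genes named above rest on 1 probe, so this check could not be made for them.

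**Figure D4:**
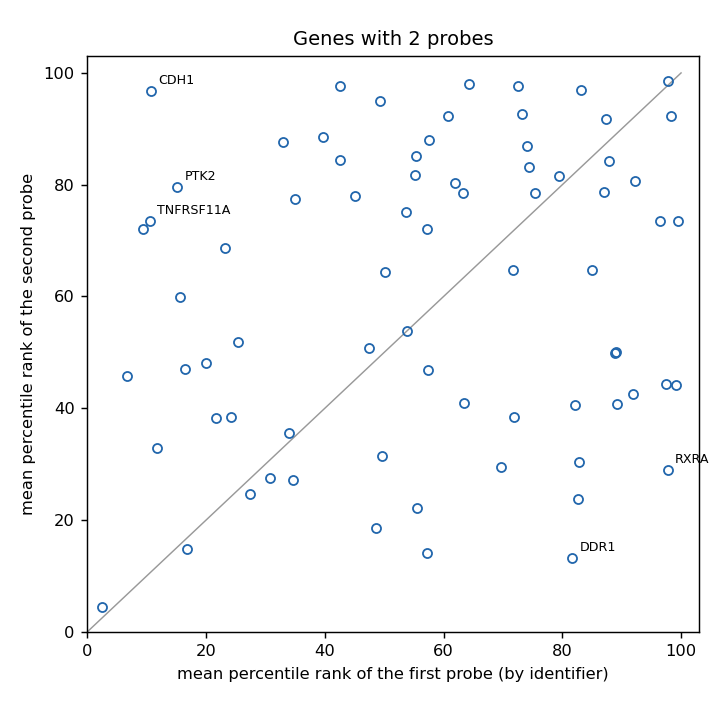
Mean percentile rank of the second probe against that of the first for the 74 genes with 2 probes, in the order of probe identifiers, with the line of equality. Points lie far from the line for CDH1, PTK2, TNFRSF11A, DDR1 and RXRA.

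Promoter composition was set beside the detection classes. Of 2078 genes 1665 (80.1%) had a promoter in RefSeq's table. The observed over expected CpG ratio in the promoter window had a median of 0.771 for genes above background on every array, 0.765 on some and 0.754 on none. A ratio of at least 0.6 was found in 68.9%, 67.7% and 63.7% of these promoters, and in 47.4% of all promoters in the table. Across genes the ratio and the rank correlated with a Spearman coefficient of 0.0221. Genes are not independent replicates.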

How the data were processed

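Each deposited scanner file holds, per the file headers, the raw and local background intensity of 12788 spots in both channels, not normalized. The scanner is not named in the sources used here, and the headers do not give the dyes. Channel 1 was read as Cy3, since the labels number the channels in this order and the log2 ratio of channel 2 over 1 correlated with the authors' deposited log2 value table at r between 0.559 and 0.758. That table served for this check alone. Per the labels, RNA was amplified before dye coupling.

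Net intensity, ranks and the background call are described with the results. The array sets were compared on normexp-corrected (offset 50), quantile-normalized log2 intensity with limma 3.58.1 in R 4.3.3, with 3 residual degrees of freedom and Benjamini-Hochberg adjustment over 3048 probes. Both steps were run on simulated data. These had no division between arrays like the one seen here, and too little noise at the background to test wrong calls there. Tables were handled with pandas 2.3.3 in Python 3.11.15.

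Members, lists and tests were chosen with earlier results of these data known. Named were the 15 brightest genes, a selection of up to 4 high and 3 low members of each list, the cell type markers, ACTB and GAPDH, and the probes with the smallest p. Other genes were named after their values were seen. Alternatives are given at the end. Probe positions in the genome are not analysed here.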

Additional observations from a re-analysis of the deposited data

Results flagged for a closer look

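Of 105 named genes above background on every array, 3 had 1 array far from the other 4 in log2 net intensity relative to the array's median, where chance flags about 1 in 20 groups. EDNRB lay at 2.70 on cisplatin array 2, against 2.35 to 2.43 on the others. TNFRSF14 lay at 4.25 on cisplatin array 2, against 3.47 to 3.61. ITGAV lay at 0.69 on cisplatin array 1, against 1.20 to 1.25.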

How the results depend on the processing

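Of the settings tried for the counts of genes above background, 1 moved them by over 1.5 times: with a spot called at 1.5 times its background, 1605 genes were above it on every array and 30 on none, against 1065 and 568. Under the other rules for spots and probes the counts lay between 835 and 1149 on every array and between 487 and 786 on none. Leaving out each array in turn gave 1070 to 1109 and 576 to 617. The comparison of array sets called 0 probes under 5 other settings, and 0 to 101 when each array was left out in turn, with 1 probe without electroporation array 1 and 1 without electroporation array 2. Ranks of 158 named genes shifted by a median of 0.36 percentile points without cisplatin arrays 1 and 2, an alternative added after seeing the data, and RAP1GAP by 36.7. With the dimmest probe of each gene, 16 of the 158 moved by over 1 SD, CDH1 by 86.0. These were all the genes with several probes among the 158, and the others could not move. The 158 leave out some genes with several probes that are named above, such as EIF4G1, DDR1 and RXRA. With all listed spots 3 did, and CD40 shifted most, by 14.0. The dim genes are limited by signal close to background.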

Other observations

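Among the probes with no gene name, 6 carry identifiers with the letters H2NC, which the labels do not explain. On every array 5 of them were not above background, with net intensities between -1 and 14. The remaining probe was above background on all 5 arrays, at 114 and 131 on the electroporation arrays, against 77, 74 and 76 on the cisplatin arrays.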
